A study of Homo sapiens with 8 samples.

Results

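The comparison set 2 breast cancer cell lines side by side under the same stress. Of the 8 arrays of the series, it used the 4 that carried the control hairpin: 2 arrays labelled MDA-MB-231 and 2 labelled T47D, chosen by their titles. T47D is a luminal, oestrogen receptor-positive line, and MDA-MB-231 is a line without oestrogen, progesterone and ERBB2 receptors that has a mesenchymal look. All 8 samples had been infected with a hairpin lentivirus, kept in puromycin (2 ug/ml), moved to medium without glucose and held for 24 h in 0.1% O2. The other 4 arrays came from the same lines with a hairpin against XBP1 (shXBP1) in place of the control hairpin (shCtrl). They entered the fit to estimate the spread between arrays, and their line difference is given side by side. Untreated cells were not analysed here, so a difference in the response to stress and a difference that the lines always have cannot be told apart. Each group was 2 arrays of 1 line with 1 hairpin. The labels call the replicates biological but do not say whether cultures or infections were separate, so the p-values rest on a spread between arrays that may be technical.

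Lack of oxygen stabilises the HIF transcription factors, which switch on genes for glucose uptake, glycolysis and vessel growth. Lack of glucose starves protein glycosylation in the endoplasmic reticulum (ER) and sets off the unfolded protein response, which runs through the sensors IRE1 (ERN1), PERK (EIF2AK3) and ATF6 and the factors XBP1, ATF4 and DDIT3. Luminal breast cells are built around oestrogen receptor, GATA3 and FOXA1 and are held together by E-cadherin, while mesenchymal-like cells carry vimentin and repressors of the epithelial programme such as ZEB1 and SNAI2.

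Values are log2 RMA levels of 1 probe set per gene (19775 genes), a difference is the level in the arrays labelled MDA-MB-231 minus that in T47D, and a gene was called at an adjusted p under 0.05 (limma, Benjamini-Hochberg over all genes). The median of all values was 5.90. Levels near or under it are close to the array's background, and a fold against such a level understates the change. Replicate arrays correlated at 0.9957 to 0.9977 across genes, and array medians lay between 5.87 and 5.91. The signal of the 3' probe set of ACTB exceeded that of its 5' probe set by 1.03 and 0.97 in the T47D control arrays and by 1.30 and 1.21 in the others. For GAPDH the 2 lines overlapped (0.33 and 0.24 against 0.27 and 0.33). The part of RNA quality in the results was not tested.

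The labels were first set against markers of the lines. All 12 luminal markers were higher in the arrays labelled T47D. PGR, the progesterone receptor, read 12.46 and 12.35 there and 4.63 and 4.73 in the arrays labelled MDA-MB-231. Of 12 genes listed as markers of MDA-MB-231, 11 were higher in the arrays with that label, among them VIM (6.30 and 6.84 in T47D against 14.30 and 14.35). The exception was PLAU, urokinase, a protease for which MDA-MB-231 is well known. It read 4.96 and 5.50 in the arrays labelled MDA-MB-231 and 6.13 and 6.32 in T47D, and both of its probe sets were lower.

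Further genes went against the label MDA-MB-231, and they were looked up after their values had been seen. CDKN2A encodes the cell cycle inhibitors p16 and p14ARF and is known to be deleted in MDA-MB-231. Its probe set read 12.32 and 12.33 in the arrays labelled MDA-MB-231, above the 9.62 and 10.01 of T47D. A second CDKN2A probe set read 11.57 and 11.58 against 7.39 and 7.42, and the other one was dim in all 4 arrays. Its neighbour on chromosome 9, MTAP, read 10.33 and 10.16 against 8.34 and 8.39. SERPINB5 encodes maspin, a protein known to be silenced in MDA-MB-231. It read 10.17 and 10.09 in the arrays so labelled and 3.70 and 4.52 in T47D. GSTP1, a glutathione transferase that MDA-MB-231 is known to make in quantity, read 6.69 and 6.94 in these arrays and 7.09 and 6.95 in T47D, with no call. The 2 shXBP1 arrays with the same line label gave like values, 12.33 and 12.22 for CDKN2A and 10.88 and 10.72 for SERPINB5. The arrays carried mesenchymal and lacked luminal markers, as the label has it, but CDKN2A, SERPINB5, GSTP1 and PLAU went against it. They are called the MDA-MB-231-labelled arrays throughout, every direction rests on that label, and whether the RNA came from another line was not tested.

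**Figure D1:**
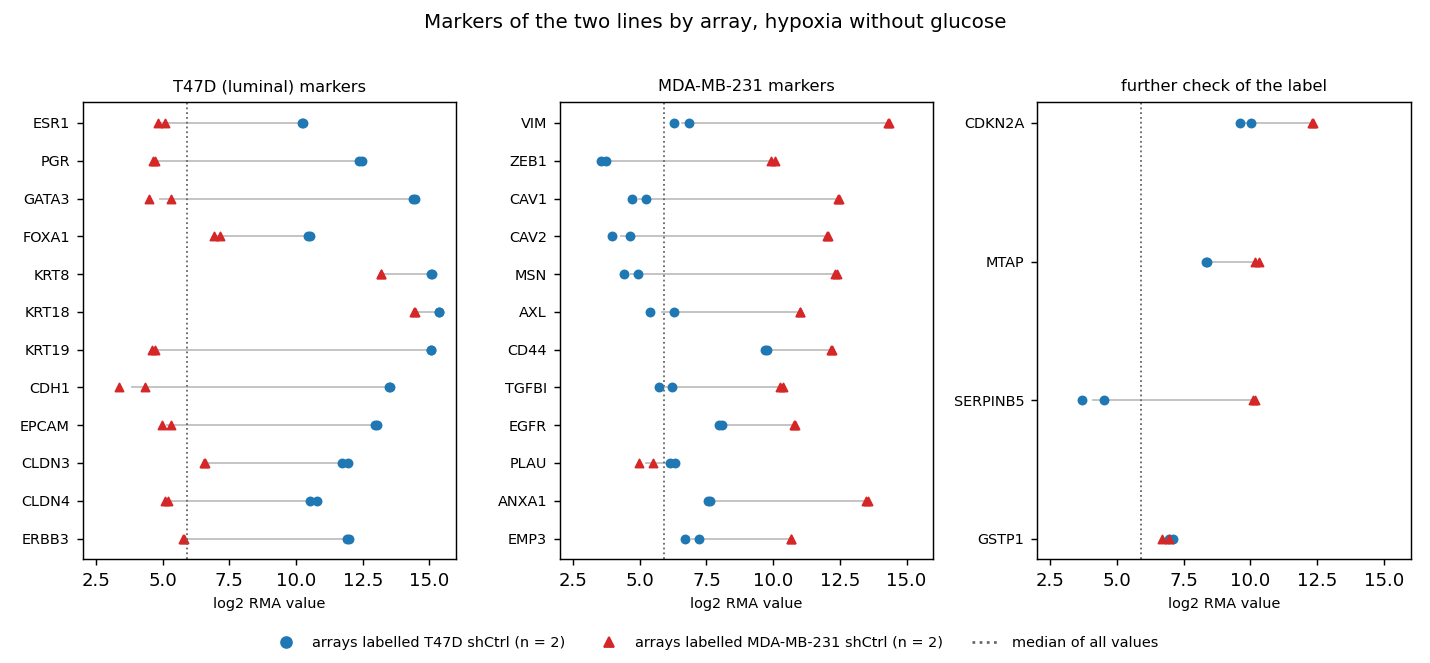
Log2 RMA values of 12 luminal markers, 12 MDA-MB-231 markers and 4 further genes in each of the 4 control-hairpin arrays (circles, T47D; triangles, labelled MDA-MB-231; dotted line, the median of all values). The groups separate at all markers in the direction of the labels but PLAU, while CDKN2A at 12.32 and 12.33 and SERPINB5 at 10.17 and 10.09 are high in the arrays labelled MDA-MB-231 and GSTP1 is low in all 4.

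Over all genes, 9683 of 19775 (49.0%) were called, 4692 (23.7%) higher and 4991 (25.2%) lower in the MDA-MB-231-labelled arrays. With a minimum of 2-fold, 4306 (21.8%) remained, 1925 (9.73%) higher and 2381 (12.0%) lower. A difference of at least 16-fold was called for 195 genes (0.986%) on the higher and 228 (1.15%) on the lower side. The 2 arrays of a line lay wholly above or below those of the other for 14032 genes (71.0%), so that lack of overlap by itself says little here. The counts for each gene list below are to be read against these shares, which take in many dim genes. In both lines, 6424 of all genes had a mean under the median of all values, while the lists held few such genes. With a mean of at least 7 required, 3872 of 9849 genes were higher and 3909 lower. A list share above 49.0% therefore need not stand out from genes of like brightness. With 2 arrays a line, 0.333 is the smallest two-sided p of an exact permutation test, so the model over all genes was used.

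The largest difference on the lower side was that of KRT19, a keratin of simple epithelia. It read 15.06 in both T47D arrays and 4.59 and 4.70 in the labelled MDA-MB-231 arrays, a 1365-fold difference (-10.41, SE 0.10, adjusted p = 4.98e-09). It was followed on the lower side by CDH1, GATA3, IGFBP5, DSCAM-AS1 (a long non-coding RNA of luminal tumours), AGR2, the prolactin receptor PRLR, PIP, SERPINA6 and the iron exporter SLC40A1, all at 349-fold or more. On the higher side stood BASP1, a membrane-bound signalling protein (4.92 and 5.39 against 14.08 and 14.09, 487-fold), WFDC1 (452-fold), the glutathione peroxidase GPX1 (430-fold) and SNAI2 (403-fold). LY6K (374-fold), the urea cycle enzyme CPS1 (297-fold) and the kinase SGK1 (275-fold) came close behind. These genes were drawn only from those whose arrays of the 2 lines did not overlap, so their lack of overlap is no result.

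**Figure D2:**
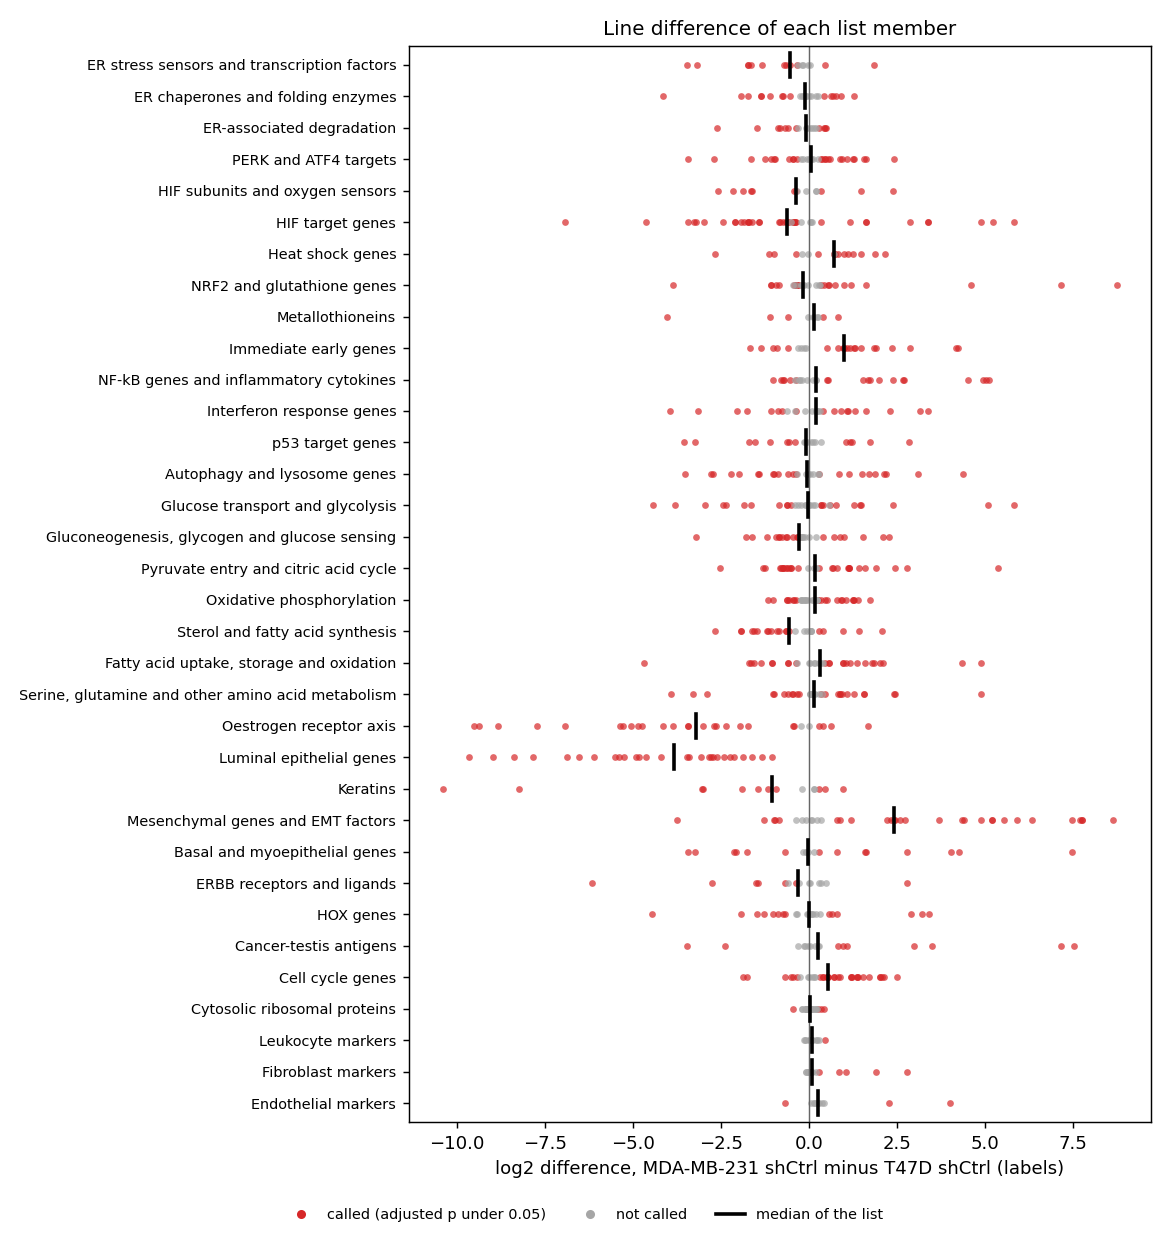
Log2 difference (MDA-MB-231 minus T47D, by label, control hairpin) of every measured member of the 34 gene lists, red where called and grey where not, with the median of each list as a black bar. The luminal list lies wholly below 0 with a median of -3.83, the mesenchymal list has a median of 2.42, and most stress and metabolic lists spread to both sides around a median near 0.

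All 28 measured luminal epithelial genes were lower in the MDA-MB-231-labelled arrays, each by at least 2-fold (median difference -3.83, against 0.01 over all genes). The list holds junction proteins, secreted proteins and the factors that keep epithelial splicing and identity. CDH1, E-cadherin, read 13.50 and 13.54 in T47D and 4.36 and 3.36 in the other arrays (-9.66, SE 0.27, 810-fold, adjusted p = 8.53e-08). EPCAM, an adhesion molecule of epithelia, read 12.95 and 13.04 against 5.31 and 4.99 (-7.85). The tight junction proteins OCLN (-6.88), CLDN4 (-5.52), CLDN3 (-5.25) and CLDN7 (-4.20), the splicing factor ESRP1 (-6.12) and the epithelial regulator GRHL2 (-5.40) were lower as well. AGR2 and AGR3, disulphide isomerases of secretory cells, differed by -8.98 and -8.38. The smallest difference of the list was that of TOM1L1 (-1.04).

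Since ZEB1 and SNAI2 bind the E-box CACCTG, promoters of luminal genes were searched for it on both strands. RefSeq windows (GRCh38.p14, 250 bases before to 50 after the start site, the first window listed for a gene) were found for 15384 of the genes tested and for 17 of the 28 luminal genes. The E-box was in 11 of these 17 windows (64.7%) and in 19.6% of all windows of genes tested. In the oestrogen receptor axis, which was also mostly lower, it was in 4 of 22 windows (18.2%). All luminal genes were called lower, so the list offers no uncalled members to compare. Whether ZEB1 or SNAI2 lowers these genes was not tested. A match is a description of letters and not a site. A pair of luminal genes with large differences that hold it before the start site is shown, chosen after the values were seen, 5' to 3' on the strand of the gene, with E-box letters (here read as CAGGTG, on the other strand) in capitals. AGR3 lies at chr7:16881984-16882233 (minus strand) and OCLN at chr5:69492297-69492546 (plus strand). In AGR3 the matches begin 68 and 51 bases before the start site, and in OCLN 33 bases before it.
AGR3: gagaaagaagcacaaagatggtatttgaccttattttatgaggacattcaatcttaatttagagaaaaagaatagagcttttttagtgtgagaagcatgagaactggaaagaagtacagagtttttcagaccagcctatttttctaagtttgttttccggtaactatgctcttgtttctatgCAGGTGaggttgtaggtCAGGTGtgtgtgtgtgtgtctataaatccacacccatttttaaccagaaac
OCLN: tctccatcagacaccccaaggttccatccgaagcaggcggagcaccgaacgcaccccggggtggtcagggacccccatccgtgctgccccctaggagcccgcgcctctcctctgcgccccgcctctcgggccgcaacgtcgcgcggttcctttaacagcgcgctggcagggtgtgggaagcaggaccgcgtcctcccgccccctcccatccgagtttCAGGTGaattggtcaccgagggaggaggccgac

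The oestrogen receptor axis was lower at 22 of 28 genes and higher at 4 (median -3.22), with 20 lower and 1 higher at 2-fold or more. ESR1, the receptor itself, read 10.24 and 10.25 in T47D and 5.09 and 4.82 in the MDA-MB-231-labelled arrays (-5.29, SE 0.11, 39.1-fold). Its partner GATA3 read 14.45 and 14.39 against 5.31 and 4.51 (-9.51), and FOXA1, which opens chromatin for the receptor, 10.46 and 10.51 against 7.16 and 6.93 (-3.44). Target genes followed: GREB1 differed by -5.37, TFF3 by -4.87 and TFF1 by -3.87. CELSR2 (1.69), the insulin-like growth factor receptor IGF1R (0.62), CCND1 (0.41) and the zinc transporter SLC39A6 (0.29) were higher. BCL2 (0.01) and TFAP2B (-0.22) were not called. The oestrogen response element GGTCANNNTGACC was in none of the 22 windows found for the list and in 0.039% of those of all genes tested.

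KRT8 and KRT18, the pair of simple epithelia, stayed among the brightest probe sets in both lines although they were lower in the labelled MDA-MB-231 arrays (KRT8 15.07 and 15.11 against 13.19 and 13.19; KRT18 15.35 and 15.37 against 14.41 and 14.45). KRT23 (-8.25), KRT15 (-3.03) and KRT13 (-3.01) were lower and KRT7 was higher (0.97). In all, 3 of 14 keratins were higher and 8 lower. Among ERBB receptors and ligands, EGFR was the 1 member of 14 called higher (8.07 and 7.96 against 10.82 and 10.78, a difference of 2.79). ERBB3 (-6.18), the ligand TGFA (-2.76) and ERBB2 (-1.45) were among the 6 that were lower. ERBB4 (-0.69) lost its call without the T47D replicate 1 (-0.29) or without either array labelled MDA-MB-231 (-0.73 and -0.65). Its other probe sets differed by -2.39 (6.60 in T47D against 4.21), by -0.82 and, not called, by 0.15.

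Of 35 mesenchymal genes and factors of the epithelial to mesenchymal transition, 23 were higher and 5 lower (median 2.42). SNAI2, a repressor of E-cadherin, read 4.03 and 3.73 in T47D and 12.61 and 12.47 in the MDA-MB-231-labelled arrays (8.65, SE 0.14, 403-fold). ZEB1, a repressor of the same kind, read 3.54 and 3.72 against 10.06 and 9.90 (6.35, 81.6-fold). Caveolins CAV2 (7.75) and CAV1 (7.47), moesin (MSN, 7.69), annexin ANXA1 (5.91), the receptors TGFBR2 (5.55) and AXL (5.19) and the ectonucleotidase NT5E (5.20) were higher. The programme was not uniform, however. TWIST1 read 8.50 and 8.56 in T47D and 4.48 and 5.07 in the other arrays (-3.75), and fibronectin (FN1, -0.85) and TGFB2 (-0.96) were lower too. N-cadherin (CDH2, 0.23), CDH11 (-0.36), PRRX1 (0.09) and SNAI1 (0.35) were not called, and CDH2, CDH11 and PRRX1 read under 6 in all 4 arrays.

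Basal and myoepithelial genes went both ways, with 8 of 19 higher and 6 lower (median -0.02). CAV1, the protease inhibitor SLPI (4.27), the peptidase MME (4.05) and EGFR led the higher side. P-cadherin (CDH3, 9.15 and 9.15 against 5.55 and 5.85), smooth muscle actin (ACTA2, -3.25) and ITGB4 (-2.12) led the lower one. Basal keratin KRT14 (0.15) and the neural crest factor SOX10 (-0.02) were not called. Of the HOX genes, which mark position along the body axis, 6 of 25 were higher and 8 lower. HOXD10 (3.42), HOXB7 (3.20) and HOXD11 (2.90) were higher, and HOXB2 (-4.45) and HOXC10 (-1.94) lower. Cancer-testis antigens are germ-line genes that tumours may express. PAGE1 (4.66 and 5.53 against 12.63 and 12.59), CTAG2 (7.15), SAGE1 (3.49) and GAGE1 (2.99) were higher, MAGEA1 (-3.47) and XAGE2 (-2.39) were lower, and 8 of the 17 were not called.

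Under hypoxia without glucose, the sensors and transcription factors of the unfolded protein response tended to the lower side in the MDA-MB-231-labelled arrays: 10 of 17 were lower, 2 were higher and 5 were not called (median -0.53). XBP1, the factor targeted by the other hairpin, read 12.41 and 12.56 in T47D and 10.83 and 10.69 in the labelled MDA-MB-231 arrays (-1.73, SE 0.17, 3.31-fold, adjusted p = 7.02e-05). ERN1, the kinase and nuclease that splices XBP1 mRNA, read 9.14 and 9.15 against 6.06 and 5.86 (-3.19, SE 0.10, 9.11-fold). The array does not tell spliced from unspliced XBP1. DDIT3, the CHOP factor, read 13.45 and 13.52 against 11.93 and 11.74 (-1.65). ATF4, the hub of the PERK branch, read 12.96 and 13.09 against 13.06 and 13.07 and was not called (0.04, adjusted p = 0.776). PERK itself (EIF2AK3) was slightly lower (-0.34) and ATF6 was not called (-0.19). Membrane-bound relatives of ATF6 went opposite ways, CREB3L4 at -3.46 and CREB3L2 at 1.85.

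Among 25 ER chaperones and folding enzymes, 6 were higher, 9 lower and 10 not called (median -0.12). The major chaperones did not pass the test. HSPA5, the BiP chaperone that restrains the sensors, read 14.64 and 14.77 in T47D and 14.53 and 14.53 in the MDA-MB-231-labelled arrays (-0.17, SE 0.10, adjusted p = 0.188). It was called lower where all its probe sets were averaged (-0.77, adjusted p = 0.000755) and where the variance was modelled with a trend (adjusted p = 0.0145). HSP90B1 (0.07), calreticulin (CALR, -0.07), calnexin (CANX, -0.21) and MANF (0.01) were not called. The oxidases ERO1B (8.81 and 8.50 against 4.68 and 4.33, a difference of -4.15) and ERO1A (-1.73), which re-oxidise disulphide isomerases, were lower. So were the DnaJ cofactors DNAJC3 (-1.93), DNAJB9 (-1.37) and DNAJB11 (-1.10) and the chaperone HYOU1 (-1.35). The isomerase PDIA6 was higher (11.81 and 11.88 against 13.13 and 13.12, a difference of 1.28).

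The ER stress response element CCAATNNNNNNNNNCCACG was in 6 of the 23 windows found for the chaperone list (26.1%) and in 16 of the 15384 windows of genes tested (0.104%), searched on both strands. Of the 6 genes, 5 were among those not called and 1, ERO1B, was lower. The promoter of HSPA5 (chr9:125241344-125241593, minus strand, GRCh38.p14) is shown with its match in capitals, which spans 66 to 48 bases before the start site.
HSPA5: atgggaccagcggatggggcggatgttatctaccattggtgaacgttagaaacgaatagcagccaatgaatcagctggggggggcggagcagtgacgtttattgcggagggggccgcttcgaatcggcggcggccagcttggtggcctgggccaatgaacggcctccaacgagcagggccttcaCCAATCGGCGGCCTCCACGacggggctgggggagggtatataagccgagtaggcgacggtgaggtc

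Of 18 genes of ER-associated degradation, which removes misfolded proteins, 4 were higher and 7 lower. SEL1L, the scaffold of the HRD1 ubiquitin ligase, differed most (11.67 and 11.81 against 9.20 and 9.06, -2.61, SE 0.10, adjusted p = 3.69e-07), followed by the ligase RNF139 (-1.48). EDEM1 (0.03), HERPUD1 (-0.09) and SELENOS (-0.06) were not called. Of the PERK and ATF4 targets, 14 of 34 were higher and 11 lower (median 0.06). The transsulphuration and serine enzymes called higher included CTH at 9.02 and 9.18 against 11.55 and 11.50 (2.43), CBS at 1.56, PHGDH at 1.27 and PSPH at 1.07. The phosphatase subunit PPP1R15A (1.26) and the mTORC1 inhibitor DDIT4 (12.10 and 12.20 against 13.82 and 13.73, a difference of 1.62) were also higher. Secreted STC2 (-3.43), the stress protein NUPR1 (12.73 and 12.88 against 10.01 and 10.18, -2.71), the amino acid carriers SLC1A4 (-1.26) and SLC7A11 (-1.09) and the pseudokinase TRIB3 (-0.56) were lower. ATF3 (-0.22), GDF15 (0.25) and SESN2 (0.11) were not called.

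HIF1A, the alpha subunit of HIF-1, read 13.11 and 13.08 in T47D and 13.30 and 13.32 in the MDA-MB-231-labelled arrays, a difference of 0.21 that missed the threshold (adjusted p = 0.0823). It passed in 4 of the 12 alternative analyses, with adjusted p from 0.0022 to 0.0386. EPAS1, which encodes HIF-2 alpha, was lower (12.98 and 13.07 against 11.45 and 11.32, -1.64, SE 0.09, adjusted p = 3e-06). This held at 1 of 3 probe sets, while the dimmer others differed by -0.42 and 0.06 and were not called. The alternative partner ARNT2 was higher (5.12 and 5.86 against 7.90 and 7.89, a difference of 2.40). SIAH2 (-2.59), a ligase that degrades prolyl hydroxylases, HIF1AN (-2.16), which hydroxylates HIF to block its coactivator, CITED2 (-1.87), a competitor for that coactivator, and the prolyl hydroxylase EGLN3 (-1.61) were lower. In all 3 of 14 members were higher and 7 lower.

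HIF target genes were more often lower than higher in the MDA-MB-231-labelled arrays: 28 of 43 were lower and 10 higher (median -0.61), and with a 2-fold minimum 17 were lower and 9 higher. CA12, a membrane carbonic anhydrase that oestrogen also induces, read 13.00 and 13.28 in T47D and 5.65 and 6.75 in the other arrays (-6.94, SE 0.30, 123-fold). HILPDA, a lipid droplet protein, read 13.69 and 13.68 against 9.18 and 8.90 (-4.64, 24.9-fold). The secreted factors STC2 (-3.43), ANGPTL4 (-3.27), STC1 (-3.20) and endothelin EDN1 (-2.99) were lower, and so was VEGFA, the main growth factor for vessels (12.90 and 12.93 against 11.33 and 11.08, -1.72, SE 0.11, adjusted p = 5.29e-06). Mitophagy receptors BNIP3L (-2.11) and BNIP3 (-1.42) and the phosphofructokinase-2 isoforms PFKFB3 (-2.45) and PFKFB4 (-1.84) were lower too. Differences were small at PDK1 (-0.65), the kinase that closes pyruvate dehydrogenase, at the histone demethylase KDM3A (-0.40) and at the glucose transporter SLC2A1 (-0.86). PDK1 and KDM3A lost their call where all their probe sets were averaged (-0.29 and -0.08, adjusted p = 0.0719 and 0.659).

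The 9 HIF targets that were higher by 2-fold or more were a mixed group. SLC2A3, the high-affinity glucose transporter GLUT3, read 6.97 and 6.77 in T47D and 12.73 and 12.66 in the MDA-MB-231-labelled arrays (5.82, SE 0.10, 56.5-fold, adjusted p = 1.49e-08). TMEM45A (5.24), the collagen cross-linking enzymes LOXL2 (4.88) and LOX (2.88), the repressor BHLHE41 (3.38), the chemokine receptor CXCR4 (10.28 and 10.56 against 13.85 and 13.74, a difference of 3.37), DDIT4 (1.62), PLOD1 (1.62) and PLIN2 (1.16) completed it. JMJD6 (0.08), FAM162A (0.06), PLOD2 (0.04), MXI1 (-0.22) and EPO (-0.52) were not called.

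The hypoxia response core ACGTG was in 19 of the 35 windows found for HIF targets (54.3%) and in 24.1% of the windows of genes tested, on either strand. The ER chaperone list held it in 11 of 23 windows (47.8%), so a high share was not particular to HIF targets. Among HIF targets, the core was in 4 of 8 windows of those called higher, 13 of 23 called lower and 2 of 4 not called. A target with a large called difference in each direction that holds it before the start site is shown, with the match in capitals. BHLHE41 (chr12:26125038-26125287, minus strand) carries the core on both strands in an overlapping match 48 to 43 bases before the start site. ANGPTL4 (chr19:8363905-8364154, plus strand) carries it on the other strand, its first base at position -234 and its last at -230 from the start site. Both are from GRCh38.p14.
BHLHE41: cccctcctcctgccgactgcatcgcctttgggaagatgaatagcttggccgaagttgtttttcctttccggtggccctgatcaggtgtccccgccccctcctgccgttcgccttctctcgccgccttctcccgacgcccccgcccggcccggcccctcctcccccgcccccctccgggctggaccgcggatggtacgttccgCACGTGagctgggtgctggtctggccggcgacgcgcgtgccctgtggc
ANGPTL4: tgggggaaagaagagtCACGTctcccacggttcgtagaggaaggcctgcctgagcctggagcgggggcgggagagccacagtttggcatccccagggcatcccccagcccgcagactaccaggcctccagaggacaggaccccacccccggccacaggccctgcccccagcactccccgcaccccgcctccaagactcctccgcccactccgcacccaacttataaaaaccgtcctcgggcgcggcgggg

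Heat shock genes lay on the higher side in the MDA-MB-231-labelled arrays, with 11 of 18 higher and 4 lower (median 0.72). HSPH1, a nucleotide exchange factor of the HSP70 chaperones, read 10.00 and 10.17 against 12.27 and 12.22 (2.16), and the DnaJ proteins DNAJB4 (1.87) and DNAJA1 (1.47) and the regulator HSF1 were higher. The small heat shock proteins HSPB8 (10.75 and 10.98 against 8.21 and 8.19, -2.66) and HSPB1 (-1.14) were lower. HSPA6, which most cells make only under stress, read 7.77 and 7.88 against 7.96 and 9.12. The spread between its labelled MDA-MB-231 arrays exceeded the difference, and it was not called (0.72, SE 0.50).

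Oxidative stress genes split evenly, 11 of 32 higher and 11 lower (median -0.16), with some of the widest gaps of any stress list. GPX1, a selenium-dependent peroxidase, read 4.57 ± 0.61 (mean and SD, n = 2) in T47D and 13.30 and 13.34 in the MDA-MB-231-labelled arrays (8.75, SE 0.23, 430-fold). The malic enzyme ME1, a source of NADPH, read 4.04 and 4.19 against 11.17 and 11.37 (7.16). The exporter ABCC2 (4.60) and the transketolase TKT (1.63) were higher. Plasma peroxidase GPX3 was lower (9.21 and 9.49 against 5.80 and 5.18, -3.86), as was the glutamate-cysteine ligase subunit GCLC (-0.95), while its partner GCLM was higher (1.19). NFE2L2, which encodes NRF2, was not called (0.21), and its target NQO1 was slightly lower (-0.29). Of 10 metallothionein genes and their regulators, 2 were higher and 3 lower, led by MT1M (-4.04). MT2A, called higher at 0.41, lost its call without any 1 of the 4 control arrays (adjusted p from 0.0541 to 0.141).

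Immediate early genes, which encode fast transcription factors and the phosphatases that restrain MAP kinases, were mostly higher: 16 of 25, with 5 lower (median 0.99). EGR1 read 6.01 and 5.15 in T47D and 9.82 and 9.80 in the MDA-MB-231-labelled arrays (4.23, SE 0.24). The AP-1 subunit FOSL1 (6.28 and 5.39 against 10.06 and 9.99, a difference of 4.19) and the phosphatases DUSP5 (2.87), DUSP4 (1.90), DUSP1 (1.84) and DUSP6 (1.28) were higher. For DUSP4 this held at 1 of 3 probe sets, while the others differed by 0.18 and -0.31 and were not called. FOS was lower (11.05 and 11.15 against 9.36 and 9.48, -1.68), and JUN was not called (-0.08).

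Inflammatory genes of the NF-kB group were higher at 13 of 27 and lower at 6 (median 0.20), with 11 higher and 1 lower at 2-fold or more. CXCL8 (interleukin 8) read 4.63 and 4.54 in T47D and 9.68 and 9.72 in the MDA-MB-231-labelled arrays (5.12, SE 0.12, 34.7-fold). PTGS2, the inducible cyclooxygenase, read 3.72 and 3.45 against 8.60 and 8.64 (5.04), and IL6 4.86 and 4.97 against 9.89 and 9.84 (4.95). CXCL2 (4.52), the adhesion molecule ICAM1 (2.69) and the feedback inhibitor TNFAIP3 (2.68) were higher. The feedback inhibitor NFKBIA was lower (-1.01). CXCL1, CCL2, CCL20 and IL24 read under 5.5 in all 4 arrays.

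Interferon response genes showed no common direction, with 10 of 28 higher and 8 lower (median 0.20). IFI44 (3.95 and 4.54 against 7.56 and 7.67, a difference of 3.37), OAS1 (3.16) and IFIT3 (2.31) were higher. IFIT5 (9.66 and 9.75 against 5.96 and 5.57, -3.94), MX1 (-3.15) and GBP1 (-2.05) were lower. Among 21 measured p53 targets, 5 were higher and 8 lower. TIGAR, which lowers glycolytic flux, read 7.89 and 7.92 against 10.71 and 10.77 (2.84), and GADD45A was higher (1.73). TP53I3 (12.81 and 12.67 against 9.17 and 9.23, -3.54) and TP53INP1 (-3.24) were lower. CDKN1A (0.17) and MDM2 (-0.10) were not called.

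Genes of autophagy and the lysosome were higher at 10 of 30 and lower at 13 (median -0.06), with 8 on each side at 2-fold or more. MITF, a regulator of lysosome genes, read 6.82 and 6.46 in T47D and 11.21 and 10.81 in the MDA-MB-231-labelled arrays (4.38, SE 0.23). Cathepsins went both ways, CTSL at 3.09 and CTSZ at 2.19 against CTSD at -2.73. The autophagy protein WIPI1 (11.24 and 11.19 against 7.77 and 7.64, -3.51) and BECN1 (-1.42) were lower. MAP1LC3B (0.02) and SQSTM1 (-0.09), whose products mark autophagosomes and their cargo, were not called.

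**Figure D3:**
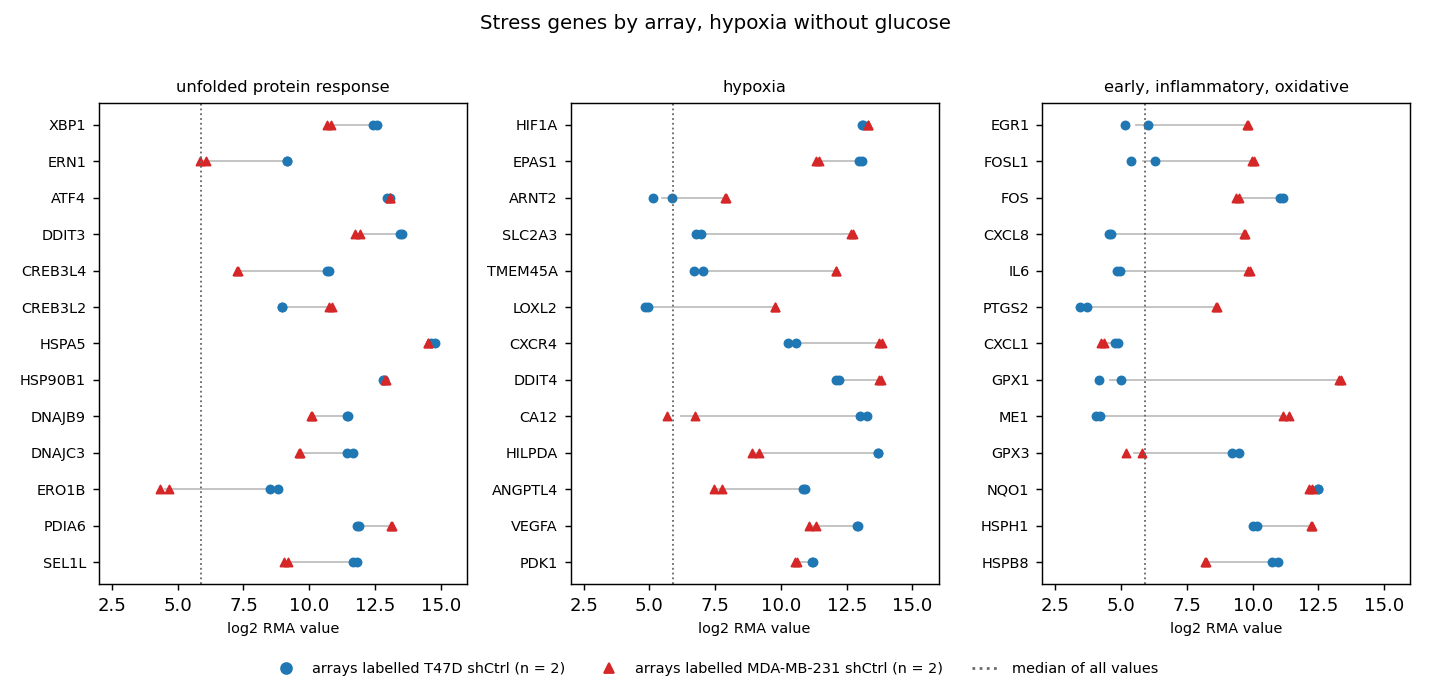
Log2 RMA values of genes of the unfolded protein response, of hypoxia and of early, inflammatory and oxidative stress in each control-hairpin array (circles, T47D; triangles, labelled MDA-MB-231; dotted line, median of all values). HSPA5, ATF4 and HIF1A lie close together in both lines, while ERN1, ERO1B, CA12 and HILPDA are high in T47D and SLC2A3, CXCL8, IL6 and GPX1 are high in the arrays labelled MDA-MB-231.

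Of the glycolysis genes, 11 of 33 were higher and 11 lower (median -0.02). LDHB, the lactate dehydrogenase subunit that favours pyruvate, read 10.00 and 10.05 in T47D and 15.13 and 15.09 in the MDA-MB-231-labelled arrays (5.09, SE 0.09, 34.0-fold, adjusted p = 1.55e-08). LDHA, the HIF-induced subunit, read 14.60 and 14.56 against 14.69 and 14.69 and was not called (0.11). Of the transporters, SLC2A3 was higher by 5.82 and SLC2A1 (11.50 and 11.65 against 10.81 and 10.63) lower by 0.86. HK1, the housekeeping hexokinase, read 12.79 and 12.78 against 9.01 and 8.91 (-3.82, 14.1-fold), and the hypoxia-induced HK2 differed less (-0.61). The enolase ENO2 (9.29 and 9.56 against 4.80 and 5.16, -4.44) and the aldolase ALDOC (-2.35) were lower, while ENO3 (2.39) was higher and ENO1 (-0.02) not called. The enzymes PKM (1.47), TPI1 (1.44), GPI (1.28) and GAPDH (0.61) were higher.

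Genes of gluconeogenesis, glycogen and glucose sensing were higher at 7 of 28 and lower at 14 (median -0.27). FBP1, the fructose bisphosphatase that opposes glycolysis, read 9.40 and 9.42 in T47D and 6.04 and 6.37 in the MDA-MB-231-labelled arrays (-3.20, SE 0.23, 9.21-fold). PCK2, the mitochondrial enzyme that makes phosphoenolpyruvate, read 9.13 and 9.32 against 8.29 and 8.27 (-0.95), and PCK1 was dim in all 4 arrays. TXNIP, whose mRNA follows glucose supply, read 7.02 and 6.94 against 7.12 and 6.82 and was not called (-0.01), but its relative ARRDC4 was lower (-1.78). Glycogen-targeting subunits PPP1R3B (2.28) and PPP1R3C (1.54) and the AMPK catalytic subunit PRKAA2 (2.11) were higher, and PPP1R3D (-1.61) lower.

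Pyruvate entry and the citric acid cycle had 28 of 32 genes called, 14 in each direction (median 0.17). PDK4, a kinase that closes pyruvate dehydrogenase in starvation, read 3.75 and 3.87 in T47D and 9.21 and 9.14 in the MDA-MB-231-labelled arrays (5.37, SE 0.10, 41.3-fold), and its opponent, the phosphatase PDP1, read 8.49 and 8.54 against 10.97 and 10.96 (2.45). Malic enzymes ME3 (2.78) and ME2 (1.92) and pyruvate carboxylase (PC, 1.59) were higher. The isocitrate dehydrogenases went apart, with IDH2 at 11.92 and 12.00 against 9.45 and 9.41 (-2.53), IDH3A at 1.43 and IDH1 at 1.14. Of the respiratory chain genes, 14 of 38 were higher, 8 lower and 16 not called (median 0.18). NDUFA9 (1.73) was the highest and NDUFB5 (-1.17) and COX8A (-1.03) the lowest.

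Sterol and fatty acid synthesis was lower at 14 of 27 genes and higher at 5 (median -0.57). SC5D, a late sterol enzyme, read 12.32 and 12.41 in T47D and 9.73 and 9.67 in the MDA-MB-231-labelled arrays (-2.66, SE 0.09, adjusted p = 2.22e-07). MSMO1 (-1.93), SQLE (-1.55), PMVK (-1.48), DHCR7 (-1.18) and IDI1 (-1.09) of the same pathway were lower, as were INSIG2 (-1.94) and INSIG1 (-1.62), which hold the sterol sensor in the ER. That sensor, SCAP, was higher (8.41 and 8.42 against 10.49 and 10.49, a difference of 2.08), as was NSDHL (1.41). SREBF1 (-0.06) and ACLY (-0.15) were not called and FASN differed by 0.28.

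Genes for the uptake, storage and oxidation of fatty acids were higher at 15 of 34 and lower at 10 (median 0.32). ACSL4, the acyl-CoA synthetase for arachidonate, read 4.74 and 4.66 in T47D and 9.59 and 9.62 in the MDA-MB-231-labelled arrays (4.90, SE 0.21, 30.0-fold). PPARG, a regulator of lipid storage, read 5.36 and 5.29 against 9.78 and 9.57 (4.35). The beta-oxidation enzymes ACADM (1.85), ACAA2 (1.38) and HADHA (0.98) were higher. Of the carnitine shuttle that feeds them, CPT2 (-1.66), SLC25A20 (-1.57) and CPT1A (-1.04) were lower and CPT1C (0.39) was not called. The peroxisomal oxidase ACOX2 (10.74 and 10.98 against 6.18 and 6.18, -4.68) was the lowest of the list.

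Amino acid metabolism had 13 of 33 genes higher and 11 lower (median 0.15). The glutamate transporter SLC1A3 read 4.95 and 5.45 in T47D and 9.93 and 10.22 in the MDA-MB-231-labelled arrays (4.88, SE 0.21). Ornithine decarboxylase (ODC1, 2.44) and argininosuccinate synthase (ASS1, 1.57) were higher. Glutamine synthetase (GLUL, 12.72 and 12.80 against 8.97 and 8.72, -3.91, 15.1-fold), the arginase ARG2 (-3.29) and the ornithine aminotransferase OAT (-2.89) were lower. SHMT2 (0.05), PYCR1 (0.03) and GLUD1 (0.07) were not called.

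**Figure D4:**
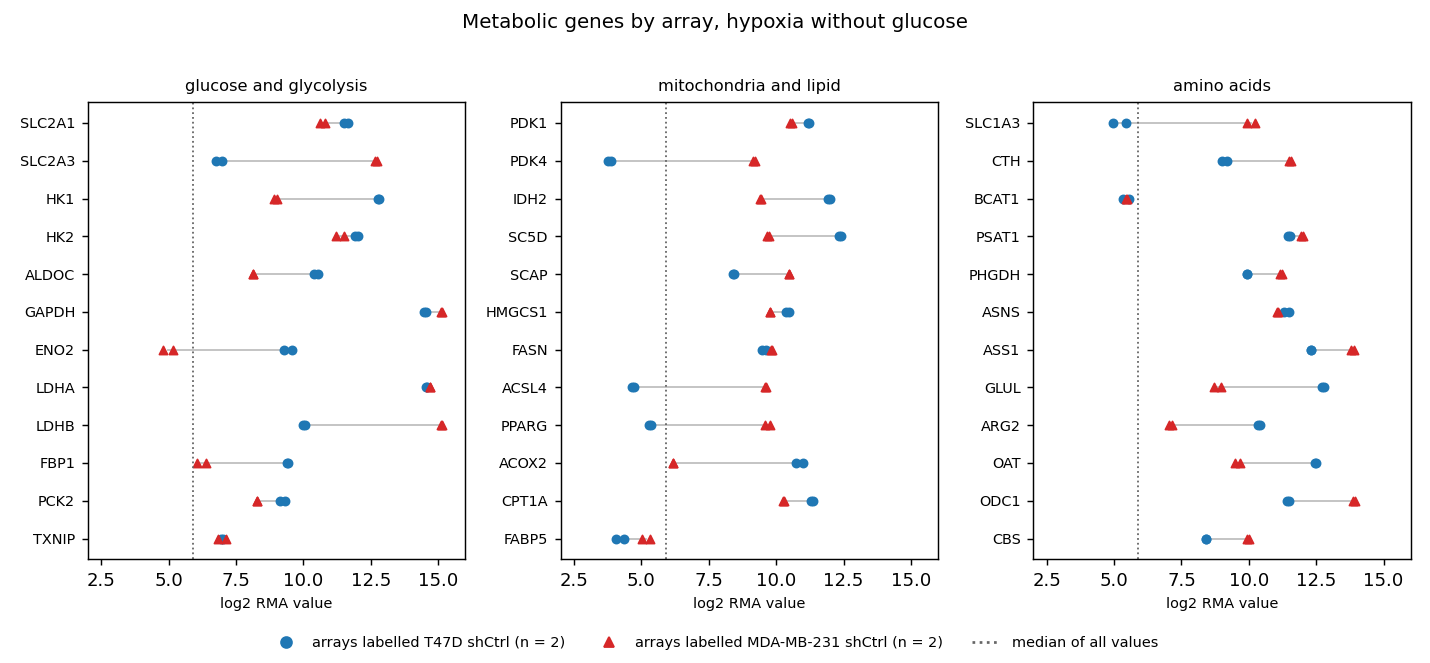
Log2 RMA values of genes of glucose use, of mitochondrial and lipid metabolism and of amino acid metabolism in each control-hairpin array (circles, T47D; triangles, labelled MDA-MB-231; dotted line, median of all values). LDHB, SLC2A3, PDK4, ACSL4, PPARG and SLC1A3 are high in the arrays labelled MDA-MB-231, HK1, ENO2, FBP1, ACOX2 and GLUL are high in T47D, and LDHA and TXNIP were not called.

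Cell cycle genes lay on the higher side, 25 of 37 higher and 6 lower (median 0.54), with CDKN2A the highest member and MCM5 (2.14), BUB1 (2.09) and the cyclin CCND3 (2.03) next. MKI67, the usual proliferation marker, was not called (0.10). The ubiquitin-conjugating enzyme UBE2C (11.98 and 12.03 against 10.09 and 10.21, -1.86) and the inhibitor CDKN1B (-1.77) were lower. Ribosomal protein genes, given as a housekeeping group, were called at 4 of 22 (median 0.03). With a centring of each array on its median 8 were called, and with a variance trend 15. Markers of cells that a line should not hold were near the array's background for the most part. Of 12 leukocyte markers, 1 was called (CSF1R, 0.47), and PTPRC read 3.75 and 4.15 against 4.22 and 3.89. Of 13 fibroblast markers 5 were higher, led by COL5A1 (2.78), with LUM, POSTN and PDGFRA under 5 in all 4 arrays. Of 11 endothelial markers 2 were higher, the factor ERG and the receptor ENG (2.27), and 1, ESAM, was lower (-0.68), while CDH5 and KDR read under 5 in all 4 arrays.

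The same line difference could be read in the 4 shXBP1 arrays, which have the line labels in common with the control arrays but are other samples. There 10046 genes (50.8%) were called. Of the 9683 genes called with the control hairpin, 7197 (74.3%) were called in the same direction and 480 in the opposite one. Of the 4306 that differed by at least 2-fold, 3961 (92.0%) were called in the same direction and 62 in the opposite one. CDH1 (-9.79), GATA3 (-9.15), VIM (7.83) and EGFR (2.52) had line differences close to those of the control arrays, and none of these 4 differed between hairpins by the test of the difference. Other markers of the lines did change by that test. KRT8 went from -1.90 to -0.08 and KRT18 from -0.93 to 0.13, neither called with shXBP1, and ANXA1 narrowed from 5.91 to 3.26. That test called 4905 genes (24.8%) in all. Several of the stress genes above were among them. The line difference of EPAS1 changed sign (-1.64 with shCtrl, 0.93 with shXBP1), that of DDIT4 went from 1.62 to -0.01, and those of PDK1 (-0.65 to -2.44) and KDM3A (-0.40 to -2.43) widened. FN1 also changed sign (-0.85 to 2.38), and the difference at TFF1 narrowed from -3.87 to -0.97. CCL5, a chemokine of the inflammatory list, was not called with the control hairpin (0.19), and its line difference was greater by 4.81 with shXBP1. These genes were chosen after their values were seen.

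**Figure D5:**
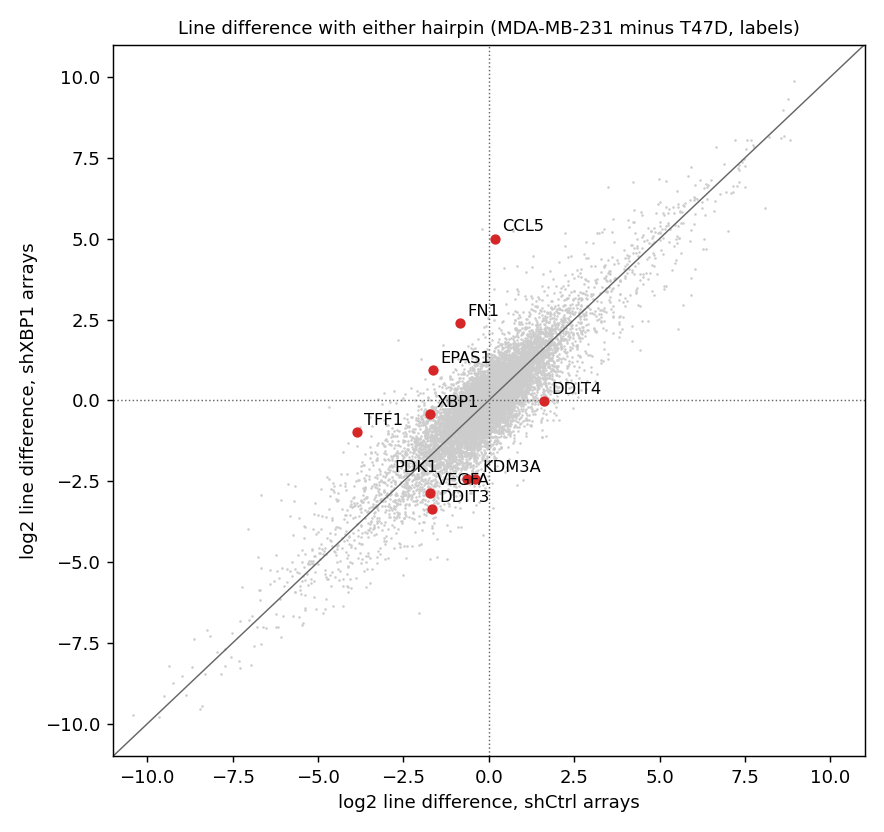
Log2 line difference (MDA-MB-231 minus T47D, by label) of 19775 genes in the shCtrl arrays (horizontal axis) and in the shXBP1 arrays (vertical axis), with equality as a line and 10 genes named in red. Most genes with a large difference lie along the line, while EPAS1 and FN1 pass from below to above 0, DDIT4 lies at -0.01 with shXBP1 and CCL5 lies farthest above the line of the named genes.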

How the data were processed

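Each of the 8 samples was total RNA on 1 Affymetrix array of 54675 probe sets. The authors deposited log2 values made with RMA, which corrects background, quantile-normalizes and summarises probes, with affy 1.30.0, per the submitters' processing notes. The set of arrays that RMA took together is not stated. Values ran from 2.75 to 15.6.

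Probe sets were named from the platform annotation: 41091 had 1 symbol, 1801 had several and 11721 were unnamed here, and 54 with 1 symbol had no RefSeq match. A gene was represented by whichever of its single-symbol probe sets was brightest on average across all 8 arrays (19775 genes, with no filter on dim genes). Of the called genes, 496 had another probe set called the opposite way. R 4.3.3 and limma 3.58.1 (lmFit, eBayes) fitted 4 group means to the 8 arrays (4 residual degrees of freedom, 7.61 after moderation, median SE of a line difference 0.119), two-sided, with Benjamini-Hochberg adjustment and a threshold of 0.05. On simulated data for 19775 genes, planted log2 differences of 0.5, 1 and 2 were recovered in 26.9%, 91% and 100% of genes, and 6.45% of calls were false. Only 67, 67 and 66 genes carried them, far fewer than the 9683 genes called in the data. A call therefore needed a smaller raw p in the simulation, and its rates do not describe the comparison of the lines. The number of arrays limits the precision.

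Genes were named by rule: XBP1, the 15 largest called differences each way, up to 6 called members of each list, a set of stress, metabolic and lineage genes, and members not called. Others the text names were chosen after their values were seen. The members and lists were chosen with earlier results of these data known. Same-numbered replicates of different groups had deviations correlating at -0.069 to 0.0381, so no shared shift was seen. The labels do not say whether same-numbered samples were handled together. Alternatives are given in the closing section.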

Additional observations from a re-analysis of the deposited data

Results flagged for a closer look

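The line difference was set against itself in the shXBP1 arrays by the test of the difference between hairpins (limma, adjusted p under 0.05). Of the 299 genes the report names, 148 passed, against 24.8% of all genes. Many of them were named for a large line difference, and some after their values were seen. Of the 4306 genes with a 2-fold call in the control arrays, 1920 passed, a share nearer to that of the named genes. Of 85 of the genes followed array by array or singled out, 42 passed, and 21 of these had a wider line difference with shXBP1. KRT19, also given array by array but not counted among the 85, passed as well. Values are the line difference with shXBP1 minus that with shCtrl on the log2 scale, so they can come from either line. Among stress genes, the change was found at XBP1 (1.30), HIF1A (-0.57), EPAS1 (2.58), VEGFA (-1.13), KDM3A (-2.03), DDIT4 (-1.63), DDIT3 (-1.71), ERN1 (-1.37), SEL1L (-0.49), HILPDA (-0.76), CXCR4 (-1.77), CTH (1.49), HSPA6 (4.53) and WIPI1 (-0.50). For early, inflammatory and oxidative genes it was found at FOS (1.48), EGR1 (2.53), CXCL8 (-1.68), CCL5 (4.81), IL6 (1.13), IFI44 (1.93), IFIT5 (0.97), GPX3 (1.61) and ME1 (-0.70). In metabolism it was found at SLC2A3 (1.13), HK1 (0.56), GAPDH (0.48), LDHB (0.71), PCK2 (0.57), PDK1 (-1.79), PDK4 (-1.34), PDP1 (-2.23), IDH2 (0.97), SC5D (-1.33), ACOX2 (2.25) and GLUL (0.68). Lineage and growth genes with such a change were TFF1 (2.90), FN1 (3.23), KRT8 (1.82), KRT18 (1.06), KRT19 (0.70), BASP1 (0.95), MTAP (-0.66) and UBE2C (2.52). EPAS1, FN1 and UBE2C were called lower with shCtrl and higher with shXBP1. The heat shock gene HSPA6, whose 2 control arrays labelled MDA-MB-231 lay far apart, had a line difference of 5.25 with shXBP1 against 0.72 with shCtrl (adjusted p of the change = 0.00318).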

How the results depend on the processing

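The counts of genes called higher, lower and by at least 2-fold stayed within 1.5 times their value under every alternative, and 4239 to 4306 of the 4306 genes with a 2-fold call were still called in the same direction, at any fold, wherever all genes were tested. Leaving out a control array in turn gave 4073 to 4328 genes higher and 4399 to 4669 lower. Centring each array on its median moved the median gene from 0.007 to 0.121 and the higher share of called genes from 48.5% to 57.6%. Same-numbered replicates showed no shared shift, and the labels do not say whether they were handled together. With the replicate number as a block, 4581 genes were higher and 4891 lower, the test between hairpins called 4466, and RPS16 (adjusted p = 0.0523) and PDGFRB (adjusted p = 0.0509) lost their calls. Both also lost them with only the 4 control arrays fitted (adjusted p = 0.0762 and 0.0506) and without any 1 control array, and PDGFRB with a variance trend (adjusted p = 0.115). ERBB4 lost its call in the 4-array fit (adjusted p = 0.0972) and with centring (adjusted p = 0.076), and RPLP1 with averaged probe sets (adjusted p = 0.122). Counts of called list members that moved were few. With a mean of at least 7 required, 7 keratins, 8 HOX genes, 5 cancer-testis antigens, 0 leukocyte, 3 fibroblast and 1 endothelial gene were called, from fewer members tested. Ribosomal calls were 9 under that filter with all 22 members tested, 8 with the median filter, 8 with centring and 15 with a variance trend. Centring gave 2 leukocyte and 6 endothelial calls. Without 1 control array, leukocyte calls ranged from 0 to 1 and endothelial calls from 3 to 5. CSF1R lost its call without T47D replicate 1 or MDA-MB-231 replicate 2 (adjusted p = 0.0628 and 0.0593). The cause of these changes was not tested. No direction was reversed among these results. Signal near background limits folds at dim genes.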

Other observations

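Genes higher and lower in the MDA-MB-231-labelled arrays were spread unevenly over the chromosomes. On chromosome 14, 16 of 611 genes were higher and 147 lower by at least 2-fold, and 18.3% of its called genes were higher, against 48.5% of all called genes. Chromosome 20 (25 higher and 98 lower of 588 genes) and chromosome 11 (83 higher and 183 lower of 1143) lay on the same side. Chromosomes 17 (71 and 149 of 1126), 8 (55 and 102 of 716) and 10 (56 and 106 of 777) leaned that way too. Chromosome 22 lay on the other side, with 61 higher and 22 lower of 460 genes. So did chromosomes 18 (49 and 22 of 303), 2 (170 and 108 of 1309) and X (104 and 66 of 695). Over all genes, 1925 were higher and 2381 lower by at least 2-fold. SEL1L and FOXA1, both lower, are on chromosome 14, and so is HIF1A, which was not called (0.21). DNA copy number was not analysed here.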
